A study of Mus musculus with 41 samples.

Results

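Interferon-stimulated effector genes encode the proteins that carry out the antiviral programme after an interferon signal. The 40 members described here are 40 of the 51410 genes counted, taken by symbol from a list that earlier results of these same data had drawn attention to, for their level in CAPRIN1 knockout cells against wild type. That comparison is therefore a description: where members past a threshold are counted in it, the count stands beside the share of all genes and nothing is read from it. The changes over alpha-amanitin, the differences in change between lines and the difference between the knockout clones are given with tests, although they too were chosen with earlier results known. The series holds 41 samples, of which 32 are RNA-seq and 9 are RIP-seq samples. All RNA-seq libraries were made from the mouse embryonic stem cell line R1, cultured for 4 days with 1 µM retinoic acid in stem cell medium without LIF, and then kept for 0, 2, 4 or 8 h in 2 µg/ml alpha-amanitin, an inhibitor of RNA polymerase II. The groups were CAPRIN1 knockout clone 2 (2 libraries at each time), CAPRIN1 knockout clone 4 (1 library at 0 h and 2 at each later time) and wild type (WT, 4 libraries at each time). CAPRIN1 is a cytoplasmic RNA-binding protein of stress granules. Each knockout line is a single clone, so what belongs to the knockout and what belongs to a clone cannot be told apart within a line, and the same WT libraries serve both clones.

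Interferons bind receptors at the cell surface, Janus kinases then pass the signal on, and transcription factors bind interferon-stimulated response elements in the promoters of their target genes. The effector genes act at different steps of an infection: some bind foreign RNA, some attach the ubiquitin-like protein ISG15 to other proteins, some make oligoadenylates that switch on an RNase, and some hold virus particles at the membrane. Pluripotent stem cells are known to express low levels of many of these genes and to respond weakly to interferon, and the response is gained as the cells differentiate.

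The 40 genes lie on 14 chromosomes, and 16 of them form 6 clusters in which neighbours are within 200000 bases (GRCm38). The Ifit cluster (Ifit2, Ifit3, Ifit3b and Ifit1) spans chr19:34550550-34650009, and Parp14, Dtx3l and Parp9 lie together at chr16:35831892-35972621. Rsad2 and Cmpk2 share a locus on chromosome 12, Mx1 and Mx2 on chromosome 16, Gbp3 and Gbp2 on chromosome 3, and Oas2, Oas3 and Oas1a on chromosome 5. The Dtx3l and Parp9 gene spans overlap, and Ifit3 with Ifit3b, the Oas1 family, Trim30a and the Gbp genes have near-identical relatives, so the split of reads among them is uncertain.

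A RefSeq promoter entry (GRCm38.p6) was matched for 30 of the 40 members. The core of the interferon-stimulated response element, GAAANNGAA read on both strands, was present in the 250 bases before the start in 15 of the 30 members (50.0%) and in 2211 of 27025 genes with an entry (8.18%). The palindromic gamma-activated site TTCNNNGAA was present in 4 of the 30 members (13.3%) and in 2197 of the 27025 genes (8.13%). These letters are a description of the window and do not show binding. Stretches from 8 of these promoters are printed 7 because they belong to the members with the core that had the highest mean level per length, and that of Igtp because of its time course below, each 5′ to 3′ on the gene's own strand. Capitals mark the bases of each match to GAAANNGAA or to its reverse complement, and overlapping matches run together.
Bst2: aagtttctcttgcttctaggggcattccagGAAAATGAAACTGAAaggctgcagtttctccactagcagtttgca
Trim25: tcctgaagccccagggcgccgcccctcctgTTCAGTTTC
Gbp2: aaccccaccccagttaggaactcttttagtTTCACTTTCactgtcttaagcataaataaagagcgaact
Isg15: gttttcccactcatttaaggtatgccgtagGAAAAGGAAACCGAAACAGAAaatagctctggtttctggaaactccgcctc
Irgm1: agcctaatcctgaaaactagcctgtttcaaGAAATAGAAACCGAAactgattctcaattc
Ifit1: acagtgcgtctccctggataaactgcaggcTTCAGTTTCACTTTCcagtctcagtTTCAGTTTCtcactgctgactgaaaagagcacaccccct
Oas1a: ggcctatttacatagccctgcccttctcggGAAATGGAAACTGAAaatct
Igtp: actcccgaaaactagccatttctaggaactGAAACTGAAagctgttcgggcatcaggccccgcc
The stretch of Bst2 (chr8:71537558-71537632, minus strand, bases -160 to -86 from the start) held 2 matches that share bases. The Trim25 stretch (chr11:88999364-88999402, plus strand, -39 to -1) held 1 match that ends at the start. The Gbp2 stretch (chr3:142620575-142620643, plus strand, -88 to -20) and the Igtp stretch (chr11:58199492-58199555, plus strand, -64 to -1) held 1 match each. The Irgm1 stretch (chr11:48871421-48871480, minus strand, -60 to -1) and the Oas1a stretch (chr5:120907526-120907575, minus strand, -50 to -1) held 2 each. The Isg15 stretch (chr4:156200846-156200926, minus strand, -108 to -28) and the Ifit1 stretch (chr19:34640750-34640843, plus strand, -139 to -46) held 3 each.

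The libraries held 3.46 to 31.6 M counts (M, mega-counts). All levels below are counts-per-million values (CPM) after TMM scaling; they are not divided by gene length, so they are compared within a gene and not between genes. Caprin1 itself, the targeted gene, was at 106 to 196 CPM in clone 2, 989 to 1223 CPM in clone 4 and 765 to 1159 CPM in WT. The libraries labelled clone 4 knockout therefore held Caprin1 RNA at or above the WT range, and a count per gene does not show whether the protein was made. The stem cell marker Pou5f1 was detected in every library, at 104 to 149 CPM in clone 2, 70.6 to 127 CPM in clone 4 and 56.5 to 98.8 CPM in WT. With Pou5f1, 9 pluripotency markers summed to 985 to 1174 CPM in clone 2, 576 to 906 CPM in clone 4 and 465 to 656 CPM in WT. At 0 h the log2 difference of clone 2 from WT was above 0 for 6 of the 9 and below 0 for 3. Utf1 was at 6.26 to 11.6 CPM in clone 2 and 9.53 to 21.7 CPM in WT. The summed level of 12 parietal and primitive endoderm markers was 58735 to 68676 CPM in clone 2, 21443 to 28623 CPM in clone 4 and 14677 to 18084 CPM in WT. That of 12 feeder fibroblast markers was 658 to 961 CPM in clone 2, 2596 to 3195 CPM in clone 4 and 882 to 1503 CPM in WT. The sum hides opposite directions in clone 2. At 0 h the log2 difference of clone 2 from WT was above 0 for 10 of the 12 and below 0 for 2 (median 1.09). Col3a1 was at 27.8 to 61.4 CPM in clone 2 and 258 to 381 CPM in WT. Fbln2 was at 156 to 199 CPM in clone 2 and 55.3 to 83.8 CPM in WT. The 11 macrophage and blood markers summed to 28.2 to 43.7 CPM in clone 2, 12.03 to 20.5 CPM in clone 4 and 8.28 to 17.6 CPM in WT. Among them Cd68 was at 22.5 to 32.4 CPM in clone 2, 6.96 to 12.9 CPM in clone 4 and 6.39 to 13.9 CPM in WT. Csf1r was at 2.87 to 12.2, 1.27 to 4.09 and 0.473 to 2.75 CPM in the same order. Fcer1g was at 1.73 to 2.94, 0.102 to 0.570 and 0 to 0.541 CPM. Ptprc, which marks all leukocytes, never exceeded 0.27 CPM and Adgre1 and Itgam never exceeded 0.15 CPM. The part of these cell type markers in the results below was not tested. In bulk RNA, fewer cells of a type and less RNA per cell cannot be told apart. The WT libraries at 0 h fell into a pair of replicates 1 and 2 and a pair of replicates 3 and 4, with a chi-square per gene of 3.53 and 2.84 within the pairs and 17.3 to 42.2 across them. The same pairs were seen at 8 h, with 1.86 and 2.23 within them and 6.37 to 10.0 across, but not at 2 or 4 h.

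At 0 h, before alpha-amanitin, the 40 members summed to 692 and 788 CPM in clone 2, 679 CPM in clone 4 and 272 to 292 CPM in WT. Trim25 alone gave 328 and 340 CPM of the sums in clone 2, 193 CPM in clone 4 and 127 to 135 CPM in WT. Both clone 2 libraries and the clone 4 library lay above all 4 WT libraries for 34 of the 40 members, against 19.1% of all genes tested. The 6 members whose ranges overlapped were Ifit2, Ifi35, Herc6, Gbp2, Gbp3 and Ifitm3. With the clones taken as 1 group, 32 of the 39 members that passed the low-count filter met a false discovery rate (FDR, Benjamini-Hochberg adjusted p) under 0.05 as higher and 0 as lower, where the same calls were made for 13.9% and 12.2% of all genes. The median log2 difference of the 39 was 2.30. Taken apart, clone 2 had 34 of 40 members called higher and 2 lower (background 22.9% and 22.3%), and clone 4 had 34 higher and 0 lower (9.28% and 6.6%). Because the members were chosen for this contrast, the counts describe them and support nothing further. With only WT replicates 1 and 2 in the fit the count for the clones as 1 group was 26, where 2445 of 15872 genes were called, and with only replicates 3 and 4 it was 1, where 12 of 15892 genes were called. In the fits that keep the clones apart the members called higher were 33 and 34 for clone 2 (10141 of 16849 and 10347 of 16747 genes called in either direction) and 35 and 36 for clone 4 (7919 and 6652 genes).

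**Figure D1:**
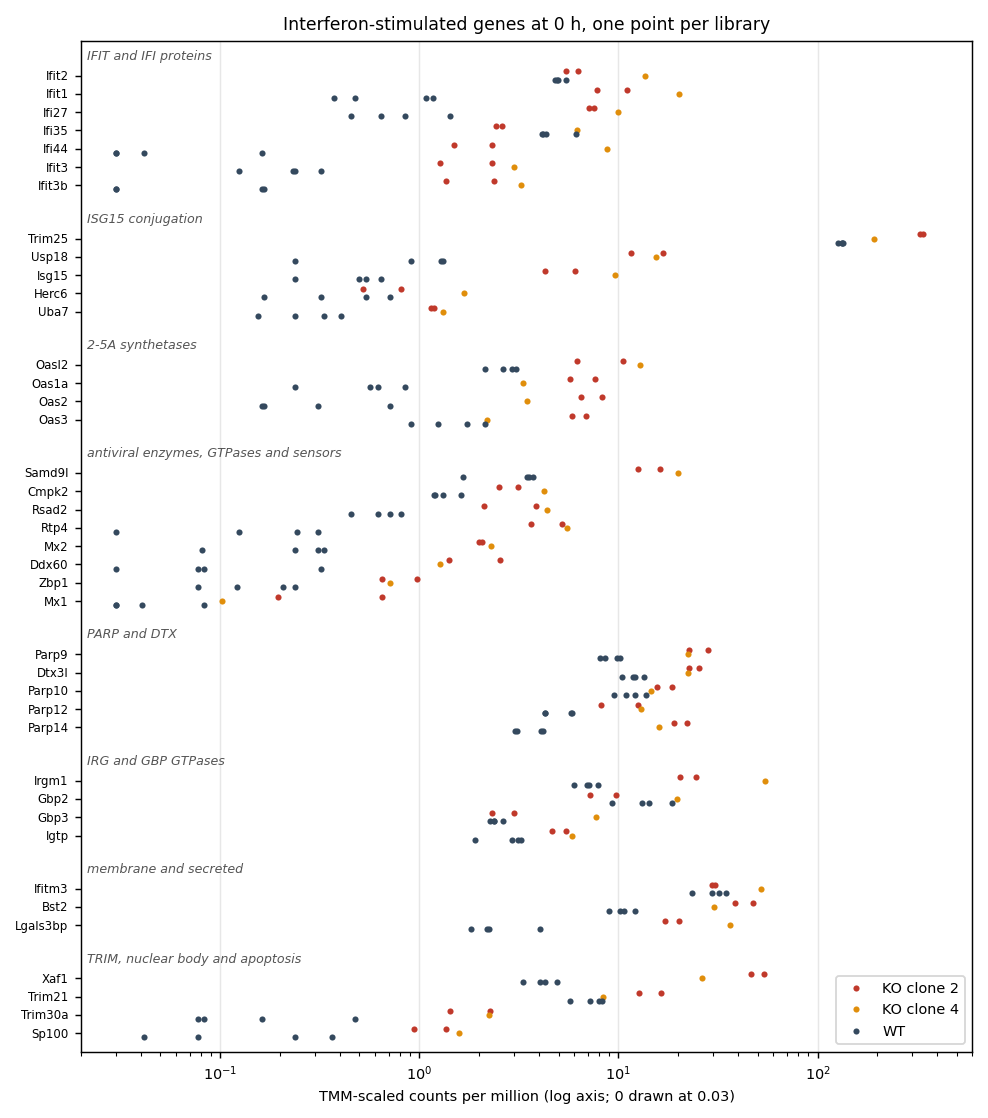
Level of each of the 40 members at 0 h of alpha-amanitin, 1 point per library on a log axis of CPM (a level of 0 is drawn at 0.03), with clone 2, clone 4 and WT in separate colours and members grouped by role. For 34 of the 40 members the 3 knockout points lie above all 4 WT points, and Gbp2, Ifi35 and Ifitm3 are among those that overlap.

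The IFIT proteins bind RNA with ends that mark it as foreign and block its translation. Ifit1 was at 7.82 and 11.1 CPM in clone 2, 20.1 CPM in clone 4, and 0.473, 0.372, 1.17 and 1.08 CPM in WT. All 3 knockout libraries were above all WT libraries, and the clone 4 library was the highest. Ifit2, a partner of Ifit1, was at 5.47 and 6.28 CPM in clone 2, 13.6 CPM in clone 4, and 4.97, 4.92, 5.47 and 4.79 CPM in WT, so 1 clone 2 library lay within the WT range and the other just over it, while the clone 4 library was well above. Ifi44, a cytoplasmic protein of the same response, was at 1.50 and 2.33 CPM in clone 2 and 8.73 CPM in clone 4, and at 0, 0.0413, 0.161 and 0 CPM in WT, where it rests on a handful of reads. Ifi35, a leucine zipper protein, went against the group in clone 2: it was at 2.61 and 2.43 CPM there, 6.20 CPM in clone 4, and 6.15, 4.13, 4.35 and 4.17 CPM in WT. Clone 2 lay below every WT library and the clone 4 library above, the last by a small margin. With the clones as 1 group, the log2 differences of the 7 IFIT and IFI members at 0 h ran from -0.30 to 5.69, with a median of 3.51.

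ISG15 is a ubiquitin-like protein that is attached to other proteins, with Uba7 as activating enzyme, Herc6 as the main mouse ligase and Usp18 as the protease that removes it and also dampens the interferon receptor. Isg15 was at 4.30 and 6.06 CPM in clone 2, 9.65 CPM in clone 4, and 0.237, 0.496, 0.644 and 0.541 CPM in WT. Usp18 was at 11.6 and 16.7 CPM in clone 2, 15.5 CPM in clone 4, and 0.237, 0.909, 1.29 and 1.31 CPM in WT. Both were above WT in every knockout library. Trim25, a ubiquitin ligase that acts on the RNA sensor RIG-I, was at 328 and 340.3 CPM in clone 2, 193 CPM in clone 4, and 127, 133, 133 and 135 CPM in WT. The clone 2 libraries were the highest for Trim25, the clone 4 library lay between, and the WT libraries were close together. The log2 differences of the 5 members ran from 1.12 to 3.78 (median 1.95), and the libraries overlapped for Herc6.

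The oligoadenylate synthetases sense double-stranded RNA and make the second messenger that activates RNase L. Oas1a was at 5.70 and 7.63 CPM in clone 2, 3.30 CPM in clone 4, and 0.237, 0.620, 0.563 and 0.850 CPM in WT. Oasl2, a family member with a ubiquitin-like tail, was at 6.19 and 10.6 CPM in clone 2, 12.9 CPM in clone 4, and 2.13, 2.93, 3.06 and 2.63 CPM in WT. No knockout library overlapped WT for either gene, and the order of the clones was opposite: clone 2 was the higher for Oas1a, clone 4 for Oasl2. The log2 differences of the 4 members ran from 1.82 to 4.62 (median 2.49).

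Among the other antiviral enzymes, GTPases and sensors, Samd9l, a cytoplasmic protein that restricts poxviruses, was at 12.5 and 16.2 CPM in clone 2, 20.0 CPM in clone 4, and 3.55, 1.65, 3.70 and 3.48 CPM in WT. Cmpk2, a mitochondrial nucleotide kinase, was at 2.51 and 3.14 CPM in clone 2, 4.21 CPM in clone 4, and 1.18, 1.20, 1.61 and 1.31 CPM in WT. Both were above WT in every knockout library, Cmpk2 by the smaller margin. The log2 differences of the 7 members that passed the filter (Samd9l, Cmpk2, Rtp4, Zbp1, Ddx60, Rsad2 and Mx2) ran from 1.27 to 4.56 (median 2.42). Mx1, a GTPase that blocks influenza viruses, did not pass the filter in that fit; its raw counts at 0 h were 6 and 12 in clone 2, 2 in clone 4, and 0, 2, 1 and 0 in WT.

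The ADP-ribosylating enzymes of the group gave smaller differences. Dtx3l, a ubiquitin ligase that works in a complex with Parp9, was at 22.6 and 25.4 CPM in clone 2, 22.4 CPM in clone 4, and 11.8, 10.5, 13.4 and 12.1 CPM in WT. Parp12, which modifies and traps viral and host proteins, was at 8.17 and 12.6 CPM in clone 2, 13.0 CPM in clone 4, and 4.26, 5.87, 5.76 and 4.25 CPM in WT. Neither overlapped WT. Parp10 was at 15.7 and 18.7 CPM in clone 2, 14.6 CPM in clone 4, and 10.9, 13.8, 12.1 and 9.51 CPM in WT, so the gap between the lowest knockout library and the highest WT library was small. Over the 5 members the log2 differences ran from 0.48 to 2.38 (median 1.13).

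The immunity-related GTPases and guanylate-binding proteins, known for the defence of vacuoles against intracellular parasites after interferon gamma, were divided. Irgm1 was at 20.3 and 24.5 CPM in clone 2, 54.8 CPM in clone 4, and 7.10, 6.99, 7.93 and 5.95 CPM in WT. Igtp was at 4.66 and 5.46 CPM in clone 2, 5.84 CPM in clone 4, and 1.89, 2.93, 3.14 and 3.25 CPM in WT. Both stood clear of WT in each knockout library. Gbp2 was at 7.20 and 9.74 CPM in clone 2, 19.8 CPM in clone 4, and 9.23, 13.1, 18.5 and 14.3 CPM in WT: clone 2 lay at or under the low end of WT and clone 4 just over its top. The log2 differences of the 4 members ran from -0.21 to 2.24 (median 0.85).

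Of the membrane and secreted members, Bst2 (tetherin), which holds budding virus at the cell surface, was at 38.3 and 47.4 CPM in clone 2, 30.4 CPM in clone 4, and 12.1, 10.2, 10.7 and 8.97 CPM in WT. Ifitm3, which blocks virus entry from endosomes, was at 30.4 and 29.6 CPM in clone 2, 52.2 CPM in clone 4, and 34.5, 32.0, 29.5 and 23.4 CPM in WT. Bst2 stood clear of WT in all 3 knockout libraries, while for Ifitm3 clone 2 lay inside the WT range and the clone 4 library alone above it. With Lgals3bp, a secreted glycoprotein, the log2 differences of the group ran from 0.33 to 3.38 (median 1.89).

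The last group holds regulators of cell death and ubiquitin ligases. Xaf1, a partner of the apoptosis inhibitor XIAP, was at 46.5 and 54.0 CPM in clone 2, 26.3 CPM in clone 4, and 3.31, 4.26, 4.91 and 4.02 CPM in WT. Trim21, an intracellular antibody receptor, was at 12.7 and 16.4 CPM in clone 2, 8.38 CPM in clone 4, and 5.68, 7.98, 7.20 and 8.27 CPM in WT. Xaf1 was far above WT in every knockout library, whereas for Trim21 the clone 4 library lay barely over the highest WT library. The log2 differences of the 4 members, Sp100 and Trim30a included, ran from 0.75 to 3.75 (median 3.05).

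The same direction was seen at the later times. At 2, 4 and 8 h, 32, 31 and 32 of the 40 members were higher in every knockout library than in every WT library of that time, against 17.9%, 20.6% and 13.9% of all genes. With the clones as 1 group 24 of 30 members tested at 2 h were called higher, 20 of 27 at 4 h and 25 of 29 at 8 h, with median log2 differences of 2.22, 1.67 and 2.24. The shares of all genes called higher were 17%, 19.4% and 10.3%; 0 members were called lower, against 14.6%, 16.9% and 7.06% of all genes. Taken apart, clone 2 had 30 members higher and 1 lower of 36 tested at 2 h (background 31.8% and 30%), 30 and 2 of 36 at 4 h (31.1% and 30.8%), and 30 and 1 of 33 at 8 h (31.7% and 31.8%). Clone 4 had 33 higher and 0 lower of 36 at 2 h (21.7% and 19.6%), 32 and 0 of 36 at 4 h (24.6% and 22.5%), and 31 and 0 of 33 at 8 h (20.4% and 17.1%). The member lower in clone 2 at each time was Gbp2, at 7.79 and 9.92 CPM in clone 2 and 19.5, 17.9, 22.3 and 21.9 CPM in WT at 8 h. The members not tested at a time were the low ones, such as Mx1, Zbp1 and Ddx60. A gene near 0 in WT could pass the filter through the knockout libraries alone, at 0 h as well. The members tested can therefore lean towards those higher in the knockout. The counts with the clones as 1 group changed with the WT libraries in the fit, for the members and for all genes. With WT replicates 3 and 4 only, 11 members and 402 of 13770 genes were called at 2 h; at 8 h 0 members and 0 of 14220 genes were called with WT replicates 1 and 2 only, and 0 members and 1 of 14218 genes with replicates 3 and 4 only. With the clones apart at 8 h, the members called higher with these pairs were 30 and 28 for clone 2 and 29 and 30 for clone 4. Of all genes, 8389 of 14220 and 8267 of 14218 were called in either direction for clone 2, and 4443 and 4279 for clone 4. The summed level at 8 h, to which Trim25 again gave the most, was 669.8 and 814 CPM in clone 2. It was 598 and 549 CPM in clone 4 and 229 to 245 CPM in WT.

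Clone 4 and clone 2 differed in the level of many members, as they did for a large share of all genes. Clone 4 was set against clone 2 with edgeR's quasi-likelihood test and Benjamini-Hochberg adjustment over all genes. At 0 h 10 members were higher and 6 lower in clone 4 of 40 tested (13.4% and 10.5% of all genes), at 2 h 17 and 8 of 36 (25% and 23.7%), at 4 h 12 and 9 of 36 (24.8% and 22.9%), and at 8 h 14 and 12 of 33 (30% and 28.5%). The count at 0 h rests on 1 clone 4 library, and without clone 2 replicate 1 it was 5 higher and 5 lower. Of the 32 members tested at 2, 4 and 8 h, 11 were higher in clone 4 each time (Ifi35, Ifitm3, Ifi44, Gbp3, Gbp2, Lgals3bp, Ifit1, Isg15, Ifit2, Irgm1 and Ifi27) and 6 lower (Trim25, Parp9, Trim21, Oas3, Oas2 and Xaf1). Among all genes 18.3% were higher at each of these times and 15.6% lower. The endoderm markers (21443 to 28623 CPM in clone 4, 58735 to 68676 CPM in clone 2) and the fibroblast markers (2596 to 3195 CPM in clone 4, 658 to 961 CPM in clone 2) differed between the same libraries, and their part in these differences was not tested.

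The IFIT and IFI genes went one way, with all 7 log2 differences above 0 at each time. All 7 were called higher in clone 4 at 2 h and at 8 h, and 5 at 4 h. Of all genes 25%, 30% and 24.8% were called higher at 2, 8 and 4 h. At 0 h, with 1 clone 4 library, the 7 differences ran from 0.44 to 2.23. Ifi44 was at 9.29 and 7.71 CPM in clone 4 and 2.55 and 0.540 CPM in clone 2 at 2 h, with no overlap, and its log2 difference was 2.23 ± 0.32, 2.41 ± 0.34, 2.13 ± 0.33 and 1.69 ± 0.30 (SE) at 0, 2, 4 and 8 h, with adjusted p of 0.000548, 4.97e-08, 3.84e-06 and 4.16e-06. Ifit1 was at 26.6 and 17.4 CPM in clone 4 and 8.94 and 7.70 CPM in clone 2 at 2 h, and the log2 difference was smaller at 4 h (0.75 ± 0.17, adjusted p = 0.000413) than at 2 h (1.39 ± 0.18); the change of that difference between times was not tested. The GTPases Gbp2 and Irgm1 and the entry inhibitor Ifitm3 had the same order. Gbp2 was at 24.9 and 27.1 CPM in clone 4 and 7.79 and 9.92 CPM in clone 2 at 8 h, a log2 difference of 1.56 ± 0.14 (adjusted p = 2.47e-13). Irgm1 was at 42.4 and 37.8 CPM in clone 4 and 19.4 and 22.1 CPM in clone 2 at 8 h (0.97 ± 0.10, adjusted p = 8.28e-11). Ifitm3 was at 57.4 and 58.3 CPM in clone 4 and 29.4 and 35.0 CPM in clone 2 at 8 h (0.86 ± 0.09, adjusted p = 2.04e-11). None of these 3 genes overlapped between the clones at 8 h.

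The opposite order was found for Xaf1, Trim25, Trim21 and the synthetases Oas2 and Oas3. Xaf1 was at 24.8 and 24.9 CPM in clone 4 and 59.9 and 75.4 CPM in clone 2 at 8 h, and its log2 difference was -0.94 ± 0.18, -0.95 ± 0.11, -1.60 ± 0.12 and -1.43 ± 0.10 (SE) at 0, 2, 4 and 8 h, with adjusted p of 0.00385, 3.33e-10, 2.53e-12 and 4.72e-16. Trim25 was at 185 and 171 CPM in clone 4 and 321 and 340.1 CPM in clone 2 at 8 h, a log2 difference of -0.87 ± 0.06 (adjusted p = 1.72e-17). Oas2 was at 2.11 and 1.14 CPM in clone 4 and 4.01 and 7.01 CPM in clone 2 at 8 h, a log2 difference of -1.74 ± 0.33 (adjusted p = 1.54e-05). The groups did not overlap for any of them. Oas3 was lower in clone 4 by -1.15 at 4 h (adjusted p = 0.0434), and there the call was lost on leaving out any one of the 4 clone libraries. Within the synthetase family Oas1a was lower in clone 4 at 0, 2 and 8 h, and Oasl2 was higher in clone 4 at 2 h and at 4 h. Of the 4 ADP-ribosylating enzymes and their partner Dtx3l, 2, 3 and 4 were called lower in clone 4 at 2, 4 and 8 h. Of all genes 23.7%, 22.9% and 28.5% were. At 0 h the log2 differences of these members ran from -0.36 to 0.34.

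**Figure D2:**
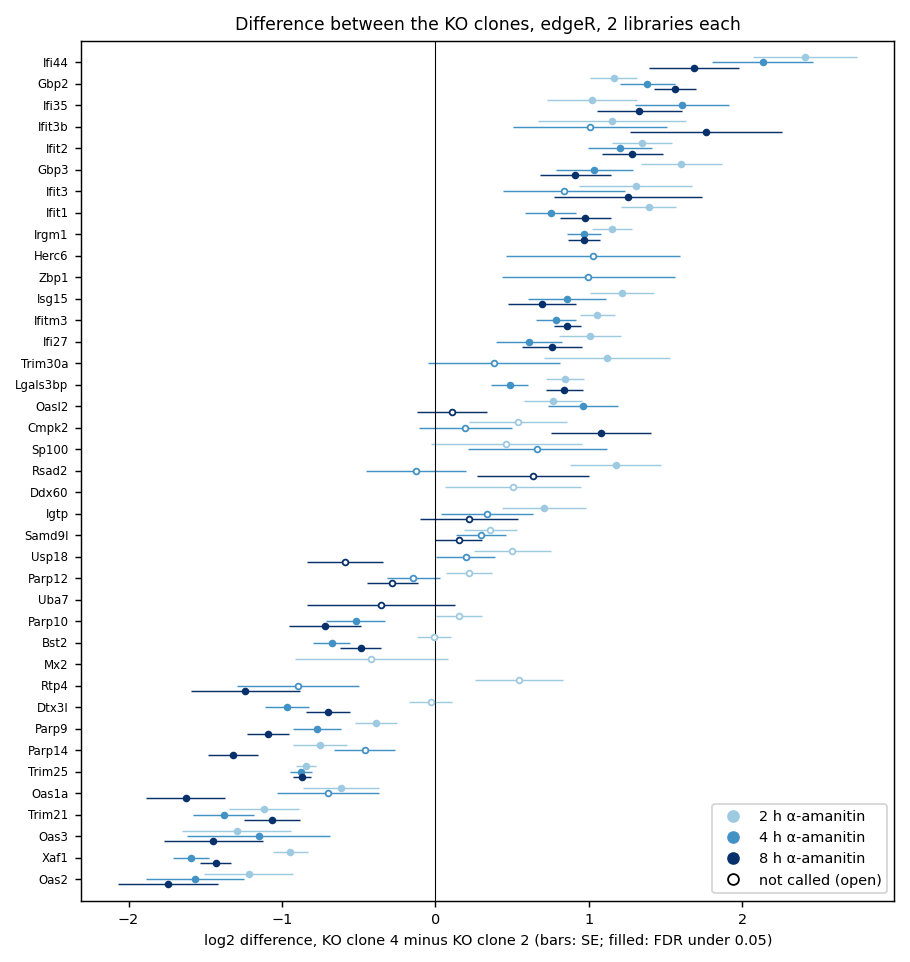
Log2 difference in level, clone 4 minus clone 2, at 2, 4 and 8 h of alpha-amanitin for the 39 members tested at 1 or more of these times. Bars are the SE of the fit and filled points have an FDR under 0.05. Ifi44, Gbp2, Ifit1 and Irgm1 lie to the right of 0 at each time and Xaf1, Trim25, Trim21, Oas2 and Oas3 to the left.

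Alpha-amanitin blocks RNA polymerase II, and the question put to the time course was how much of each message was lost once new transcripts no longer arrived. How complete the block was is not shown by the files. Counts give composition and not amount, so a log2 change of 0 means that a gene kept its share of the messages. Each time was deposited as a table of its own, so time and any batch that goes with it cannot be told apart. Differences between lines within a time do not cross the tables. They are still open to unlabelled differences among libraries of the same time, such as the WT pairs at 0 h and 8 h. A total of 39 members were tested in 1 fit of 12 groups. From 0 h to 8 h, 0 members were higher and 10 lower in clone 4 (background 8.57% and 10.9%), 2 higher and 3 lower in clone 2 (12.6% and 15.8%), and 2 higher and 14 lower in WT (25.7% and 25.4%). The median log2 change of the 39 was -0.50 in clone 4, -0.19 in clone 2 and -0.52 in WT. At 8 h against 2 h, which leaves out the 0 h libraries, 0 were higher and 14 lower in clone 4 (9.1% and 11.3%), 1 higher and 2 lower in clone 2 (12.6% and 13.2%), and 1 higher and 9 lower in WT (21.2% and 21.3%), with medians of -0.51, -0.16 and -0.51. The share of WT called is not to be set against that of the clones as it comes. WT had 4 libraries a time and each clone 1 or 2. For the fits with a library left out, here and elsewhere, counts of all genes are not given. Shifts in those fits are therefore not read as particular to the members. Without clone 4 replicate 2 at 8 h, 4 members were called for clone 4 at 8 h against 0 h, and at 8 h against 2 h the count was 7 without its replicate 1 at 2 h, 9 without replicate 1 at 8 h and 8 without replicate 2 at 8 h. For clone 2 at 8 h against 0 h 0 were higher and 8 lower without clone 2 replicate 1 at 0 h, 2 and 1 without replicate 2 at 0 h, and 2 and 6 without WT replicate 2 at 0 h. With clone 2 fitted alone 2 were higher and 10 lower (6529 of 13934 genes called), and with either WT pair 2 and 8 (6192 of 15722 and 6210 of 15760 genes), against 1995 genes higher and 2504 lower of 15850 in the fit of 12 groups.

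Oasl2 was lower in all 3 lines at 8 h against 0 h and against 2 h, and Igtp was so against 0 h only. Oasl2 in clone 4 was at 12.9 CPM at 0 h, 13.2 and 12.2 CPM at 2 h, 9.42 and 8.46 CPM at 4 h, and 5.16 and 4.68 CPM at 8 h. In clone 2 it was at 6.19 and 10.6 CPM at 0 h, 7.79 and 7.03 CPM at 2 h, 3.96 and 5.43 CPM at 4 h, and 3.78 and 5.41 CPM at 8 h. In WT it was at 2.13, 2.93, 3.06 and 2.63 CPM at 0 h, 2.24, 2.52, 3.38 and 2.62 CPM at 2 h, 1.64, 3.63, 2.60 and 2.22 CPM at 4 h, and 0.931, 1.00, 1.00 and 1.09 CPM at 8 h. In each line every 8 h library lay below every 2 h library, while the 0 h and 2 h libraries overlapped in each line. The log2 change at 8 h against 2 h was -1.37 ± 0.23 in clone 4 (adjusted p = 3.66e-05), -0.67 ± 0.25 in clone 2 (adjusted p = 0.0402) and -1.40 ± 0.30 in WT (adjusted p = 0.000304). The call in clone 2 was lost without either of its 2 h libraries or without replicate 1 at 8 h (adjusted p up to 0.303), and at 8 h against 0 h without replicate 2 at 0 h or replicate 1 at 8 h (adjusted p up to 0.193).

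Igtp, also known as Irgm3, which guards lipid droplets and vacuoles, was at 5.84 CPM at 0 h, 5.80 and 5.44 CPM at 2 h, 3.38 and 3.27 CPM at 4 h, and 3.37 and 2.17 CPM at 8 h in clone 4. In clone 2 it was at 4.66 and 5.46 CPM at 0 h, 3.45 and 3.38 CPM at 2 h, 2.56 and 2.78 CPM at 4 h, and 1.89 and 2.91 CPM at 8 h. In WT it was at 1.89, 2.93, 3.14 and 3.25 CPM at 0 h, 1.79, 1.26, 1.69 and 2.21 CPM at 2 h, 0.758, 0.837, 0.990 and 1.16 CPM at 4 h, and 0.399, 0.251, 0.625 and 0.543 CPM at 8 h. The WT libraries at 8 h lay below those of each earlier time, and they held only 3, 2, 5 and 5 reads of Igtp. The log2 change at 8 h against 0 h was -1.06 ± 0.25 in clone 4 (adjusted p = 0.00243), -1.04 ± 0.23 in clone 2 (adjusted p = 0.000649) and -2.67 ± 0.27 in WT (adjusted p = 5.85e-10). In clone 4 the adjusted p was 0.067 without replicate 2 at 8 h. At 8 h against 2 h the log2 change was -1.01 ± 0.25 in clone 4 (adjusted p = 0.00379, and 0.0949 without replicate 2 at 8 h), -0.49 ± 0.28 in clone 2 (adjusted p = 0.222) and -1.90 ± 0.34 in WT (adjusted p = 2.71e-05).

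Clone 4 lost Rtp4, a chaperone of membrane receptors with antiviral activity, more than the other members named by the rule. Rtp4 was at 5.54 CPM at 0 h, 6.09 and 4.68 CPM at 2 h, 2.05 and 1.04 CPM at 4 h, and 1.58 and 1.60 CPM at 8 h in clone 4, so the 4 and 8 h libraries lay below the earlier ones. The log2 change was -1.76 ± 0.39 at 4 h against 0 h and -1.79 ± 0.38 at 8 h against 0 h (adjusted p = 0.000868). Parp14, a macrodomain ADP-ribosyltransferase, had a log2 change of -0.99 ± 0.24 at 8 h against 0 h (adjusted p = 0.00352, and 0.0515 without replicate 2 at 8 h). Ifit3 and Rsad2 had log2 changes of -1.29 ± 0.39 and -1.16 ± 0.32 at 8 h against 2 h (adjusted p = 0.0158 and 0.00843), and each call was lost without replicate 1 at 2 h or replicate 1 at 8 h, that of Ifit3 also without replicate 2 at 8 h (adjusted p up to 0.332 for Ifit3 and 0.0932 for Rsad2). Of the 14 calls at 8 h against 2 h, those of Parp9, Oasl2, Rtp4, Irgm1 and Parp10 held with any 1 library left out. At 4 h against 0 h 8 members were lower and 0 higher (background 11.2% and 12%), among them Parp10 (-0.98 ± 0.24), Trim21 (-0.92 ± 0.27) and Dtx3l (-0.83 ± 0.17), and Trim21 was no longer called without replicate 1 at 4 h (adjusted p = 0.0814), a library without which 4 of the 39 members were called. At 2 h against 0 h edgeR called 0 members in clone 4 (background 3.57% higher and 2.75% lower), with 3 at an unadjusted p under 0.05, and DESeq2 also called 0.

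In clone 2, 2 members were higher and 6 lower at 4 h against 0 h (background 20.3% and 21.8%). The decreases were led by Oas3 (-1.52 ± 0.30), Igtp (-0.91 ± 0.24), Oasl2 (-0.81 ± 0.23) and Oas1a (-0.70 ± 0.27), and Xaf1 (0.33 ± 0.12) and Trim25 (0.30 ± 0.07) were the increases. Oas3 was at 5.86 and 6.87 CPM at 0 h, 3.19 and 5.95 CPM at 2 h, 2.56 and 1.81 CPM at 4 h, and 3.78 and 4.71 CPM at 8 h in clone 2, so the lowest libraries were those of 4 h and the 8 h libraries lay between. The calls of Oasl2, Oas1a and Xaf1 were each lost without 1 of 2 clone 2 libraries (adjusted p up to 0.170 for Oasl2, 0.334 for Oas1a and 0.251 for Xaf1), replicate 2 at 0 h for the synthetases and replicate 1 at 0 h for Xaf1 among them. Without clone 2 replicate 2 at 4 h, 5 members were called. At 2 h against 0 h 1 member was higher and 0 lower (6.04% and 5.81%); the count was 0 without clone 2 replicate 1 at 0 h or at 2 h, 3 without WT replicate 2 at 0 h, and 2 without WT replicate 3 at 0 h or without either clone 2 library of 8 h.

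In WT, Ifit1 was at 0.473, 0.372, 1.17 and 1.08 CPM at 0 h, 1.04, 1.40, 1.54 and 1.66 CPM at 2 h, 0.884, 1.39, 0.866 and 1.27 CPM at 4 h, and 0.399, 0.251, 0.125 and 0.326 CPM at 8 h. All 8 h libraries lay below all 2 h libraries, at a depth of a few reads a library, and the log2 change was -2.31 ± 0.52 (adjusted p = 0.000474). Parp10 in WT was at 9.84, 11.2, 10.8 and 8.97 CPM at 2 h and 4.79, 4.89, 4.75 and 4.45 CPM at 8 h, a log2 change of -1.11 ± 0.19 at 8 h against 2 h (adjusted p = 1.3e-05), again without overlap. Against 0 h, Usp18 and Ifit1 fell by 1.53 and 1.53 on the log2 scale in WT at 8 h (adjusted p = 0.0396 and 0.0129), the first call being lost without any one of 6 WT libraries (adjusted p up to 0.109) and the second without replicate 3 at 0 h (adjusted p = 0.0984). At 4 h against 0 h 4 members were higher and 7 lower in WT (background 24.8% and 27.4%), and at 2 h 1 and 4 (14.1% and 13.7%). Igtp and Dtx3l were lower at both times, with log2 changes of -0.77 ± 0.21 and -0.66 ± 0.13 at 2 h and -1.62 ± 0.24 and -1.37 ± 0.14 at 4 h. Trim21 (-0.54 ± 0.17) and Oas3 (-1.31 ± 0.40) were also lower at 2 h, the call of Trim21 being lost without WT replicate 4 at 2 h (adjusted p = 0.144) and that of Oas3 without replicate 3 at 0 h (adjusted p = 0.057). At 4 h they stood at -0.92 ± 0.18 and -0.92 ± 0.37, and the call of Oas3 was lost without any one of 5 WT libraries (adjusted p up to 0.155).

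A few members gained share. In WT Samd9l was at 3.55, 1.65, 3.70 and 3.48 CPM at 0 h, 1.64, 2.94, 3.23 and 3.86 CPM at 2 h, 3.16, 1.95, 2.60 and 3.18 CPM at 4 h, and 5.58, 5.65, 5.25 and 4.45 CPM at 8 h. The 8 h libraries lay above all others, and the log2 change was 0.83 ± 0.23 against 0 h (adjusted p = 0.00335) and 0.83 ± 0.27 against 2 h (adjusted p = 0.0131, and 0.0584 without replicate 1 at 2 h). Gbp2 in WT was higher at each time than at 0 h, by 0.57 ± 0.14, 0.78 ± 0.14 and 0.48 ± 0.14 on the log2 scale at 2, 4 and 8 h (adjusted p = 0.00469 at 8 h). Irgm1 (0.74 ± 0.13), Cmpk2 (0.65 ± 0.25) and Gbp3 (0.48 ± 0.19) were higher in WT at 4 h than at 0 h, and those of Cmpk2 and Gbp3 were each lost without any one of 3 WT libraries (adjusted p up to 0.161 for Cmpk2 and 0.357 for Gbp3). In clone 2 Xaf1 was at 46.5 and 54.0 CPM at 0 h, 57.6 and 47.8 CPM at 2 h, 60.0 and 65.7 CPM at 4 h, and 59.9 and 75.4 CPM at 8 h, with a log2 change of 0.44 ± 0.11 at 8 h against 0 h (adjusted p = 0.00386). Parp12 in clone 2 was higher by 0.79 ± 0.19 at 8 h against 0 h (adjusted p = 0.00224). Both clone 2 calls were lost without replicate 1 at 0 h or replicate 2 at 8 h (adjusted p up to 0.211 for Xaf1 and 0.203 for Parp12). Trim25 in clone 2 had a log2 change of 0.23 ± 0.07 at 2 h against 0 h (adjusted p = 0.0285) and of -0.24 ± 0.07 at 8 h against 2 h (adjusted p = 0.00976). The first call was lost without either 0 h library or replicate 1 at 2 h (adjusted p up to 0.312), the second without replicate 1 at 2 h or at 8 h (adjusted p up to 0.156).

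**Figure D3:**
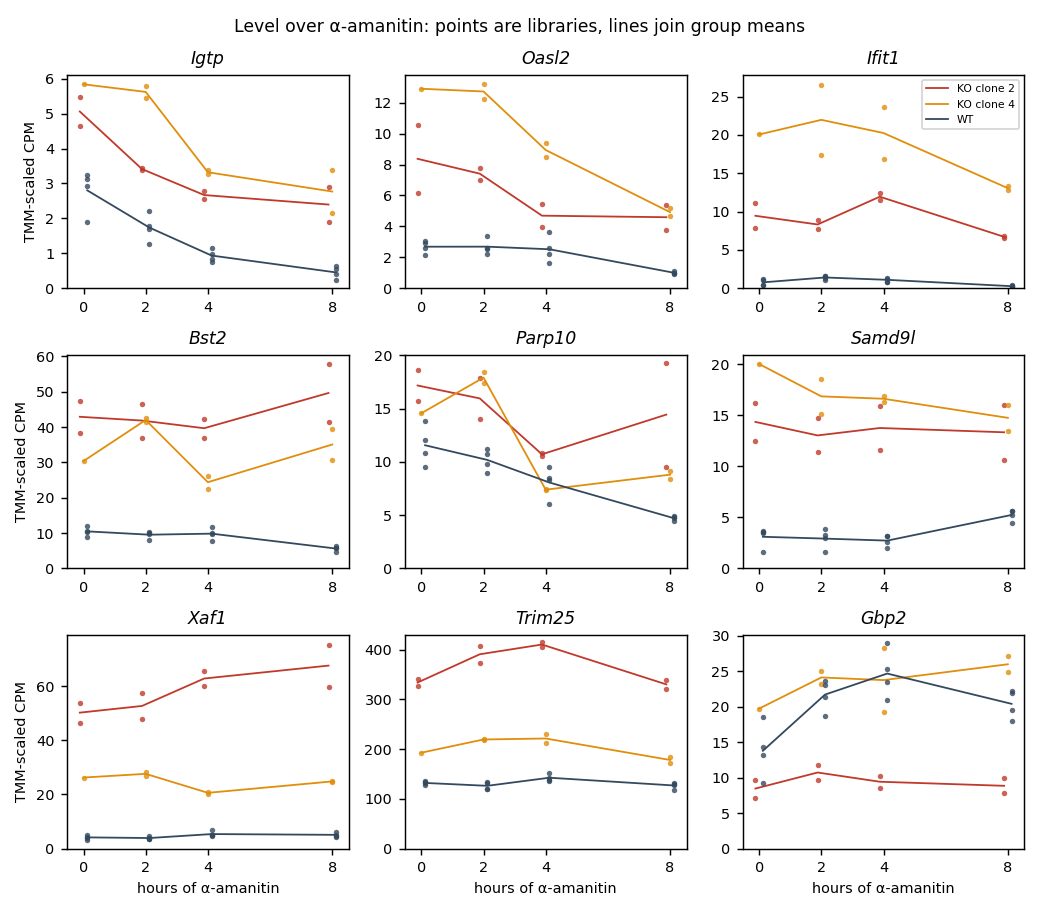
Level in CPM over 0, 2, 4 and 8 h of alpha-amanitin for Igtp, Oasl2, Ifit1, Bst2, Parp10, Samd9l, Xaf1, Trim25 and Gbp2, with 1 point per library and a line through the means of clone 2, clone 4 and WT. Oasl2 and Igtp run down in each line, and Igtp ends lowest in WT. The Xaf1 and Trim25 lines of the clones stay above WT at every time.

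**Figure D4:**
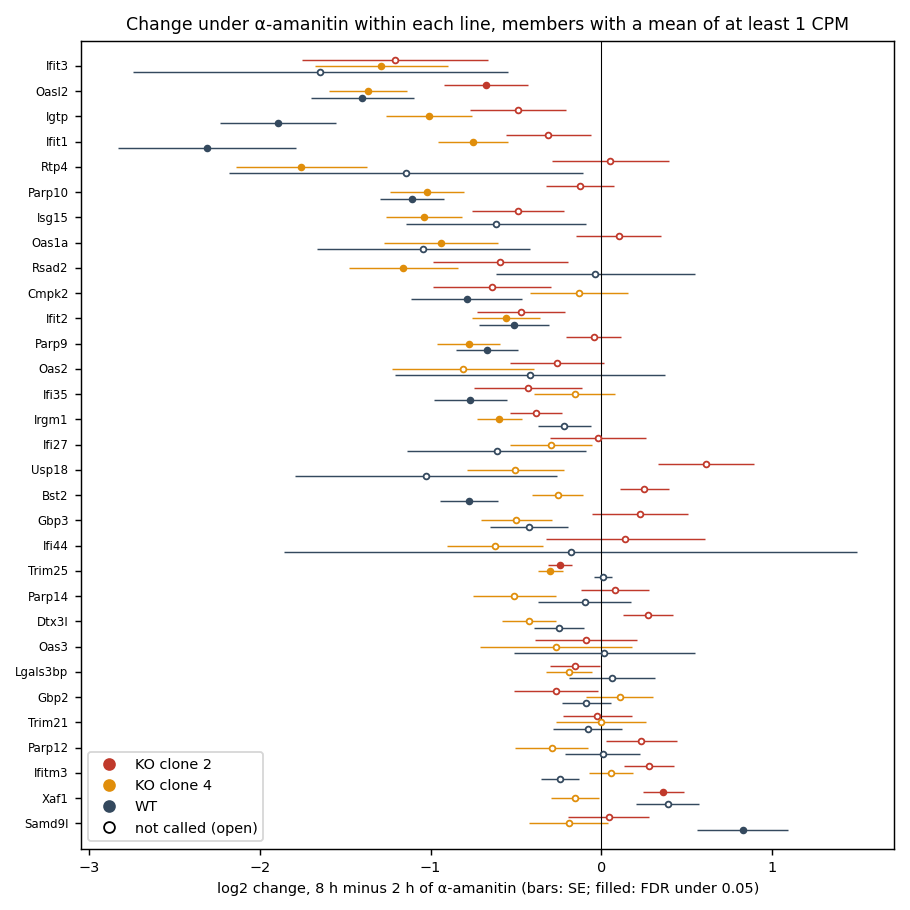
Log2 change at 8 h against 2 h in clone 2, clone 4 and WT for the 31 members with a mean of at least 1 CPM. Bars are the SE of the fit and filled points have an FDR under 0.05. Oasl2 is filled and left of 0 in all 3 lines, while Samd9l is filled and right of 0 in WT.

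Whether a line lost a message faster was tested as the difference in change between a clone and WT. At 8 h against 0 h, 6 members had a change that was less negative or more positive in clone 2 than in WT and 0 the reverse (background 3% and 4.42%). They were Igtp (difference of log2 changes 1.63 ± 0.39, adjusted p = 0.00664), Parp10 (1.11 ± 0.25, adjusted p = 0.00422), Bst2 (1.10 ± 0.21, adjusted p = 0.00053), Parp9 (0.89 ± 0.22, adjusted p = 0.00983), Dtx3l (0.80 ± 0.18, adjusted p = 0.004) and Ifitm3 (0.53 ± 0.17, adjusted p = 0.0451). Clone 2 replicate 2 at 8 h decided most of them: without it 1 member was called higher and 1 lower, and Igtp (adjusted p = 0.145), Parp10 (adjusted p = 0.284), Parp9, Dtx3l and Ifitm3 were lost. With WT replicates 3 and 4 only, 2 members were called (1090 of 15760 genes). The call of Ifitm3 held in 12 of 31 fits with 1 library left out, that of Bst2 in all 31. In clone 2 Bst2 was at 38.3 and 47.4 CPM at 0 h and at 41.4 and 57.8 CPM at 8 h, and in WT at 12.1, 10.2, 10.7 and 8.97 CPM at 0 h and 6.38, 5.77, 5.75 and 4.56 CPM at 8 h. The clone 2 libraries of the start and the end overlapped, whereas all WT libraries at 8 h lay below those at 0 h.

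At 8 h against 2 h, 3 members differed in the same direction between clone 2 and WT and 0 in the other (background 3.31% and 2.93%): Ifit1 (2.00 ± 0.59, adjusted p = 0.033), Bst2 (1.03 ± 0.22, adjusted p = 0.00348) and Parp10 (0.98 ± 0.28, adjusted p = 0.0247). The count was 0 without clone 2 replicate 2 at 8 h, 1 without clone 2 replicate 2 at 2 h or WT replicate 4 at 8 h, and 5 without clone 2 replicate 1 at 8 h. It was 0 with WT replicates 1 and 2 only (2202 of 15722 genes called) and 1 with replicates 3 and 4 only (1318 of 15760 genes). For clone 4, 2 members at 8 h against 0 h were less negative than in WT, Igtp (1.61 ± 0.40, adjusted p = 0.0233) and Bst2 (1.09 ± 0.23, adjusted p = 0.00787), and 1 was the reverse, Samd9l (-1.26 ± 0.33, adjusted p = 0.0321), against a background of 1.81% and 2.28%. Without clone 4 replicate 1 at 8 h, or with WT replicates 3 and 4 only, 0 were called, and without WT replicate 2 at 8 h 1 was. At 8 h against 2 h edgeR called 0 members for clone 4 against WT (6 at an unadjusted p under 0.05, background 0.997% and 0.681%), and DESeq2 called 0; without WT replicate 2 at 0 h edgeR called 2. Bst2 in clone 4 was at 30.4 CPM at 0 h, 41.4 and 42.6 CPM at 2 h, 26.2 and 22.6 CPM at 4 h, and 39.4 and 30.7 CPM at 8 h, which is no steady course. Clone 2 and clone 4 are set against the same WT libraries, so their differences from WT are not independent of each other.

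The other genes of the pathway were counted from lists. Of the 12 interferon genes listed 0 passed the filter, and interferon genes outside the list were not looked at. The counts of the 12 summed to 14 over the 8 clone 2 libraries, 17 over the 7 clone 4 libraries and 20 over the 16 WT libraries. Most of these reads were from Ifnk, with 10 in clone 2, 11 in clone 4 and 12 in WT and at most 5 in any library. Of 17 receptor and signalling genes tested at 0 h, 9 were higher and 1 lower in the clones as 1 group than in WT (13.9% and 12.2% of all genes), with a median log2 difference of 0.49. Jak1, a kinase of the interferon receptors, was at 162 and 169.8 CPM in clone 2, 209 CPM in clone 4, and 118, 113, 133 and 130.2 CPM in WT. Ifnar1, a chain of the type I receptor, was at 112 and 109.7 CPM in clone 2, 102 CPM in clone 4, and 103, 104, 105 and 99.0 CPM in WT, so that clone 4 lay within the WT range. Jak2, another receptor kinase, was at 49.9 and 53.7 CPM in clone 2, 60.9 CPM in clone 4, and 54.2, 47.3, 58.5 and 60.1 CPM in WT, which overlapped. A list of 10 genes held sensors of foreign nucleic acid with adaptors and kinases that act after them. Of these, 9 were tested, and Mb21d1 was not matched by symbol. Among the 9, 6 were higher and 0 lower, beside the same shares of all genes (median log2 difference 1.02). Eif2ak2, the kinase PKR that stops translation on double-stranded RNA, was at 88.0 and 94.3 CPM in clone 2, 101 CPM in clone 4, and 44.2, 37.1, 51.9 and 51.8 CPM in WT. Ddx58, which encodes RIG-I, was at 45.8 and 56.5 CPM in clone 2, 56.1 CPM in clone 4, and 23.4, 17.5, 21.3 and 20.7 CPM in WT. Tbk1, a kinase downstream of the sensors, was at 69.8 and 65.5 CPM in clone 2, 61.2 CPM in clone 4, and 44.0, 44.1, 51.0 and 52.0 CPM in WT. All 3 of these genes stood clear of WT in every knockout library.

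For the RIP-seq samples, in which RNA was pulled down with an antibody against CAPRIN1, the files used here are a pair of gene symbol lists by the authors, headed CNT vs RA and 2I vs RA. Of the 40 members 0 were among the 2170 symbols of CNT vs RA. Ifitm3 was the 1 member among the 2502 symbols of 2I vs RA, which is 2.5% of the members and 0.04% of the list. The lists carry no values, direction or background, so the depth behind an absence is unknown.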

How the data were processed

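The members and gene lists were chosen with earlier results of these data known. Per the file headers, the authors deposited 1 table of raw counts per gene for each time, with a gene length column of another kind that was used only to rank members for naming; its meaning is doubtful, so no level is given per length. The submitters' processing notes name STAR 2.4.0.1 and TopHat as well as FastQC 0.11.9, and further Cufflinks with Cuffdiff and DESeq2; they name the builds GRCm38 and mm10 and assign no tool to a file. The counting program, like its strand setting, is not given in the sources used here, nor is the annotation. Per the labels, the RNA-seq libraries came from a stranded mRNA kit. The RIP-seq files the authors deposited are gene symbol lists of another kind than counts, with no values.

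Each table held 51520 lines, of which 110 repeated identifiers were dropped and 51410 kept. The tables gave 31 libraries, and KO clone 4 replicate 1 at 0 h was not analysed here. Totals were 3.95 to 31.6 M counts at 0 h, 6.36 to 8.37 at 2 h, 3.46 to 10.2 at 4 h and 7.24 to 10.6 at 8 h. The labels do not say whether replicates were separate cultures, so p-values measure the spread between these samples, which may be technical.

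The test was edgeR 4.0.16's quasi-likelihood test on counts, run under R 4.3.3 with limma 3.58.1 (TMM, filterByExpr, robust), with Benjamini-Hochberg adjustment over all genes and a threshold of 0.05. Within a time, the clones were fitted as 1 group and as separate groups against WT. Changes over time came from a fit of 12 groups with 19 residual degrees of freedom. The scripts were tested on simulated counts. Alternatives were DESeq2 1.42.0, RLE scaling, no filter, each line fitted alone, a replicate block, either WT pair alone and each library left out. By rule, the text names the 2 members of each role with the highest mean level per length and, for each change, up to 4 called members per direction at a mean of at least 1 CPM; Ifi44, Ifi35, Usp18, Parp10, Igtp and the members named for the clone difference were named after their values were seen.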

Additional observations from a re-analysis of the deposited data

Results flagged for a closer look

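A single WT library stood apart from the other 3 of its time for some of the members in the 64 member and time combinations checked, where chance alone sets a library apart in about 1 in 20 groups. Samd9l was at 1.65 CPM in WT replicate 2 at 0 h, with the others at 3.48 to 3.70 CPM. Ifit2 was at 5.22 CPM in WT replicate 4 at 8 h, with the others at 3.01 to 3.25 CPM. Irgm1 was at 5.37 CPM in WT replicate 1 at 2 h, with the others at 9.38 to 9.94 CPM. Parp12 was at 4.14 CPM in WT replicate 4 at 2 h (others 5.46 to 5.67 CPM) and at 9.20 CPM in WT replicate 2 at 4 h (others 5.61 to 5.94 CPM). That 4 h library was the shallowest of the series, at 3.46 M counts.

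The change under alpha-amanitin differed between a clone and WT, by the test of the difference in edgeR's joint fit, for the following members, given as the difference of log2 changes. In clone 2 minus WT at 8 h against 0 h these were Parp9 (0.886), Parp10 (1.11), Dtx3l (0.800), Bst2 (1.10), Igtp (1.63) and Ifitm3 (0.532), and at 8 h against 2 h Ifit1 (2.00), Parp10 (0.983) and Bst2 (1.03). In clone 4 minus WT at 8 h against 0 h they were Bst2 (1.09), Samd9l (-1.26) and Igtp (1.61). Dtx3l and Parp9 overlap in the genome and are not independent counts unless strand was used. Bst2 is the member present in each of these lists, and in the clone 2 comparison at 8 h against 0 h it was called with any 1 library left out.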

How the results depend on the processing

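The sign of single members was checked for those called between the clones, over time or in the differences in change. In none of the alternative fits that tested such a member did its sign change (0 reversed). The members in the comparisons with WT within a time were not checked in this way. The numbers called higher and lower did shift when libraries were left out, as given above. RLE scaling kept all 32 counts of called members within 1.5 times the reported count, and DESeq2 and no filter kept 30 of 32 each. The genes called in either direction in the same fit stand in brackets below. Under DESeq2, 1 member was called for clone 2 at 8 h against 2 h (3718 of 14313 genes). For clone 4 at 4 h against 0 h 5 were called (3239 of 14620 genes). With no filter the member counts at 8 h against 2 h were 5 for clone 2 (3566 of 35470 genes) and 1 for clone 4 minus WT (378 of 35470 genes). With each line fitted alone they were, against 0 h, 3 for clone 2 at 2 h (3586 of 13934 genes) and 12 at 8 h (6529 genes). For clone 4 they were 2 at 2 h (2576 of 14835 genes) and 18 at 4 h (5463 genes). With WT replicates 1 and 2 only they were 0 for KO against WT at 8 h (0 of 14220 genes). In the fit of 12 groups 15722 genes were tested. There they were 2 and 10 for clone 2 at 2 h and 8 h against 0 h (3262 and 6192 genes), and 5 at 8 h against 2 h (5411 genes). At 4 h against 0 h they were 13 for clone 4 (5375 genes) and 7 for WT (7248 genes). For clone 2 minus WT at 8 h against 2 h the member count was 0 (2202 genes). With WT replicates 3 and 4 only the member counts were 1, 11 and 0 for KO against WT at 0, 2 and 8 h (12 of 15892, 402 of 13770 and 1 of 14218 genes). In the fit of 12 groups 15760 genes were tested. Against 0 h the member counts were 2 and 10 for clone 2 at 2 h and 8 h (3223 and 6210 genes) and 14 for clone 4 at 4 h (5387 genes). For WT they were 3 and 7 at 2 h and 4 h against 0 h (3359 and 7586 genes), and 6 at 8 h against 2 h (5286 genes). For clone 2 minus WT they were 2 at 8 h against 0 h (1090 genes) and 1 at 8 h against 2 h (1318 genes). For clone 4 minus WT at 8 h against 0 h the member count was 0 (507 genes). The cause was not tested.

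Leaving out each library in turn gave 10 to 19 called members for clone 4 against clone 2 at 0 h. It gave 0 to 3, 5 to 10 and 3 to 8 for clone 2 at 2, 4 and 8 h against 0 h, 4 to 9 and 4 to 11 for clone 4 at 4 and 8 h against 0 h, and 7 to 15 for clone 4 at 8 h against 2 h. For the differences in change it gave 2 to 8 and 0 to 5 for clone 2 minus WT at 8 h against 0 h and against 2 h, and 0 to 4 and 0 to 2 for clone 4 minus WT. KO against WT at 0 h gave 29 to 35. Counts of all genes called in these fits are not given. Whether the shifts are particular to the members was therefore not tested.

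Whether the replicate numbers pair the samples was not settled. For same-numbered WT libraries 4 of 24 pairs of deviations correlated above 0.1, and for different-numbered ones 5 of 72. The same-numbered correlations ran from 0.000165 to 0.101 in clone 2 and from -0.0243 to 0.0244 in clone 4. With a replicate block, KO against WT called 0 members at 0 h and 0 at 2, 4 and 8 h, where 0, 2, 0 and 0 of all genes were called, and clone 2 at 2 h against 0 h called 3, and the other 27 of 32 counts stayed within 1.5 times. Depth limits the lowest members: Mx1, Zbp1 and Ifit3b had WT groups in which every library held 0 counts, so no fold is given for them.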
